A study of Mus musculus with 8 samples.

Results

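The fragments described here are the longer 3′ tRFs, tRNA-derived fragments of 20, 21, 22 or 23 nt that end in CCA, the 3 bases at the 3′ end of a mature tRNA. They were chosen by their letters alone, namely by length and by ending in CCA, and there were 237 of them among the 2226 sequences in the table of β-cell tRFs, under 41 of its 48 tRNA names. By exact length, 55 sequences had 20 nt, 64 had 21 nt, 60 had 22 nt and 58 had 23 nt. They held 714578 of the 8560310 counts of unique molecules. Small RNA was sequenced from pancreatic β-cells of 8-week-old male mice of 2 genotypes. The db/db mice were BKS.Cg-Dock7m+/+LeprdbJ, whose leptin receptor is mutated and which become obese and hyperglycemic, and the wild type mice were BKS.Cg-Dock7m+/+. Islets of several mice were pooled for each preparation and the β-cells were sorted by their autofluorescence, giving 4 libraries per genotype. Values of single libraries are given in the order of their numbers, 1 to 4. A table of tRFs holds no β-cell marker genes, so the identity of the sorted cells was not checked here. In bulk libraries of this kind, fewer cells that carry a fragment and less of it per cell cannot be told apart.

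A tRNA folds so that its 3′ side forms the T arm, a short stem closed by the T loop, followed by the acceptor stem and the CCA tail that carries the amino acid. The CCA tail is not encoded in mammalian tRNA genes and is added by an enzyme after transcription. A fragment that holds this tail comes from a tRNA whose 3′ end has been completed. Some ends also read CCA before the tail, such as those of Leu-AAG, which finish in CCACCA. There, a fragment without the tail would end in CCA as well. Fragments that start in the T loop and run to CCA are one of the known classes of tRF, and some of them have been found on Argonaute proteins, which pair small RNAs with their targets mainly through a short stretch near the 5′ end called the seed.

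The 4 fragments of tRNA Pro-AGG are shown because they hold the most abundant longer 3′ tRF and share the last 20 bases, so that each is the next with 1 base added at its 5′ end. Capitals mark the bases that fall in positions 54 to 58 of the tRNA, where the count runs back from the last base at position 76. A fragment of 23 nt then starts at position 54, and fragments of 22, 21 and 20 nt start at positions 55, 56 and 57.
Pro-AGG 20 nt: AAatcccggacgagccccca
Pro-AGG 21 nt: CAAatcccggacgagccccca
Pro-AGG 22 nt: TCAAatcccggacgagccccca
Pro-AGG 23 nt: TTCAAatcccggacgagccccca
Counts over the 8 libraries were 5569, 30315, 37129 and 24206 for these 4 fragments in order of length.

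The first base followed from the length in nearly all fragments. Of the 64 fragments of 21 nt, 63 began with C, of the 60 fragments of 22 nt, 59 began with T, and of the 58 fragments of 23 nt, 55 began with T. The 55 fragments of 20 nt began with G in 44 cases and with A in 11. In all, 230 of the 237 sequences matched the T loop letters TTCGA or TTCAA from their own starting position onwards. The 7 that did not were all 4 fragments of SeC-TCA, the selenocysteine tRNA, 1 fragment of iMet-CAT, the initiator methionine tRNA, and 2 of Ala-AGC. The 22 nt fragment of SeC-TCA is shown because its first base, C, is the base that the other tRNAs place at the start of their 21 nt fragments.
SeC-TCA 22 nt: caattccacctttcgggcgcca

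The 237 sequences ran back from 67 distinct ends of 20 bases, and 49 of these ends occurred at all 4 lengths and held 97.8% of the counts. The commonest length was 21 nt for 29 of these 49 ends, 22 nt for 12, 20 nt for 6 and 23 nt for 2. For 21 of the 49 ends it was the same length in every one of the 8 libraries. Pro-AGG was one of them, with 22 nt in 8 of 8 libraries and 38.2% of its counts over all libraries at this length. The end of Gly-ACC, the next most abundant, had most counts at 23 nt in 7 of 8 libraries and at 21 nt in db/db library 3, and its 4 lengths held 15.8, 29.7, 23.7 and 30.7% of its counts.

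The longer 3′ tRFs made up 9.43, 8.73, 8.27 and 7.16% of the CCA-ended counts across the wild type libraries and 10.02, 7.77, 9.94 and 8.12% across the db/db libraries, so the genotypes overlapped (8.40% ± 0.950 against 8.96% ± 1.18, SD, n = 4). By length, 21 nt held 34.1% ± 4.14 of their counts in wild type and 34.7% ± 2.84 in db/db, and 22 nt held 27.2% ± 1.75 and 29.1% ± 0.871. Fragments of 23 nt held 22.5% ± 2.36 and 21.5% ± 1.36, and fragments of 20 nt held 16.3% ± 2.16 and 14.7% ± 1.75. All 4 shares overlapped between the genotypes, as did the mean length, 21.6 nt ± 0.0472 in wild type and 21.6 nt ± 0.0269 in db/db. The lengths just outside the limits were 19 and 24 nt. Fragments of 19 nt held 1.38% ± 0.261 of CCA-ended counts in wild type and 1.39% ± 0.408 in db/db, near the 1.36% ± 0.182 and 1.32% ± 0.231 at 20 nt, whereas fragments of 24 nt held 6.41% ± 1.17 and 6.02% ± 0.751, more than the 1.87% ± 0.0715 and 1.92% ± 0.198 at 23 nt.

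To compare the genotypes, counts were summed for each end and exact length and tested with edgeR's quasi-likelihood test, in which a call needed an adjusted p below 0.1 and a change above 2-fold. Of the 30 sums of this kind, 1 was called, which is 3.33%, and it was not one of the 4 described here. The log2 fold change of db/db over wild type was -0.13 (SE 0.24) for 20 nt, 0.03 (SE 0.27) for 21 nt, 0.11 (SE 0.26) for 22 nt and -0.04 (SE 0.25) for 23 nt, with adjusted p-values from this edgeR test of 0.851, 0.935, 0.851 and 0.935. The 21 nt sum was 43319, 23802, 26530 and 19242 CPM (counts per 1000000 tRF counts, scaled with TMM factors) across the wild type libraries and 23795, 24548, 45388 and 21738 CPM across the db/db libraries. A single library in each genotype, wild type library 1 and db/db library 3, stood above the other 3, and the genotypes overlapped.

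The same fragments were unevenly spread over tRNA names. In counts pooled over the 8 libraries, which weight the deeper ones more, Trp-CCA alone held 23.8%, with Pro-AGG, Gly-ACC and Gln-CTG next. These 4 names together held 58.7% and the first 10 names 79.7%. Trp-CCA, the tryptophan tRNA, held 24.2, 18.4, 21.1 and 20.2% of the counts of these fragments across the wild type libraries, and 20.5, 17.6, 28.6 and 21.4% across the db/db libraries. The share of Pro-AGG varied most, from 10.3 to 20.1% in wild type and from 5.39% in db/db library 1 to 21.1% in db/db library 2. The order of names differed between libraries, and Pro-AGG stood above Trp-CCA in db/db library 2. The genotypes overlapped in both names, and in the other 8 of the first 10 as well. RefSeq lists 8 genes for Trp-CCA, 6 for Pro-AGG and 1 for Gly-ACC, and the last lies on chromosome 11 from 48823728 to 48823801 in mouse genome build GRCm38.p6. The table gives no gene for a fragment and a single tRNA name for each sequence. Whether tRNAs of other names hold the same sequence was not checked. No fragment could therefore be placed in a gene, and this includes those listed under Gly-ACC.

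The part of a tRNA's 3′ tRFs that had 20 to 23 nt differed widely between names. In counts pooled over the 8 libraries, which weight the deeper ones more, it ran from 0.289% of the CCA-ended counts for Lys-TTT to 43.2% for Thr-CGT, with a median of 16.8% over the 41 names. Gln-CTG stood at 42.4% and Gly-ACC at 32.1%. In single libraries Thr-CGT lay between 34.5 and 53.0% and Gln-CTG between 37.1 and 46.5%, and Lys-TTT between 0.201 and 0.432% and Asp-GTC between 0.265 and 0.497%, so the order at either end of the range differed between libraries. Low pooled values were also found for other names, as Asp-GTC stood at 0.313%, Glu-CTC at 0.365% and Lys-CTT at 0.737%. A further 7 names in the table had no such fragment listed under them, Ala-TGC, Glu-TTC, Leu-TAG, Pro-TGG, Sup-TCA, Val-CAC and the microRNA name mmu-mir-1983. A fragment shared with a tRNA of another name may stand under that name, so this does not show that these tRNAs lack such fragments.

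Fold changes were then fitted for each sequence over all 1832 sequences that passed the filter on low counts, with adjustment over all of them. The filter asks for enough counts in 4 libraries, so a sequence could pass through the libraries of 1 genotype, and 221 of the 237 longer 3′ tRFs passed. The 16 others had between 65 and 172 counts over all libraries. Of the 221, 12 were called higher in db/db β-cells, where 5.57% of all tested sequences were, and 0 were called lower, where 9.44% of all were. In the edgeR test, 24 of the 221 had an unadjusted p under 0.05, and DESeq2 also called 0 lower. The median log2 fold change was 0.09 over the 221 and 0.00 over all 1832 sequences. The CPM of the genotypes did not overlap for 28 of the 221, or 12.7%, against 17.1% of all tested sequences. The number of calls depended on the scaling and on the libraries. Without wild type library 3, 1 was called lower. Without db/db library 3, which had 2946290 tRF counts against 582165 to 1265123 in the others, 12 were called higher and 4 lower. The 4 were 2 fragments of the abundant Gly-CCC end and 1 each of Tyr-GTA and Phe-GAA. With the implied total of all counts in each library as its size, 6 were called higher and the median over all sequences was -0.36, and with the effective sizes in the authors' own log2 values 1 was called higher and that median was -0.51.

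The most abundant fragments were not among the called ones. None of the 50 with most counts was called, their log2 fold changes lay between -0.80 and 0.64, and the genotypes overlapped in all 50. The 22 nt fragment of Pro-AGG, the first of all, had 7046, 3659, 5961 and 2513 CPM across the wild type libraries and 1407, 6187, 6526 and 2742 CPM across the db/db libraries. Both genotypes spanned a wide range, giving a log2 fold change of -0.19 (SE 0.44, adjusted p = 0.845, edgeR). The 23 nt fragment of Gly-ACC, the most abundant of its length, had 3939, 3473, 3075 and 2722 CPM in wild type and 3388, 2191, 3900 and 2289 CPM in db/db, with a log2 fold change of -0.17 (SE 0.33, adjusted p = 0.823, edgeR). The 20 nt fragment with most counts was also one of Gly-ACC, with 1701 CPM ± 416 in wild type and 1558 CPM ± 385 in db/db (SD, n = 4).

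Trp-CCA had its most abundant fragment by counts pooled over the 8 libraries at 21 nt, with 3793, 1563, 1995 and 1403 CPM across the wild type libraries and 2478, 2236, 6071 and 2265 CPM across the db/db libraries. Library 3 of the db/db group was far above the rest and gave 14598 of its 27243 counts, and the log2 fold change of 0.58 (SE 0.40, adjusted p = 0.456, edgeR) did not pass the test. Without that library another 21 nt fragment of Trp-CCA had more counts, 12725 against 12645. This second fragment had 5016, 2310, 2894 and 1756 CPM in wild type and 1597, 1597, 4872 and 1478 CPM in db/db, and its log2 fold change of -0.33 (SE 0.42, adjusted p = 0.710, edgeR) was not called either. For Gln-CTG the value at 21 nt was 0.46 (SE 0.36, adjusted p = 0.506, edgeR), from 1582 CPM ± 508 to 2172 CPM ± 887. Without db/db library 3 its 23 nt fragment had more counts, 10123 against 9489, and with all libraries that fragment had a log2 fold change of 0.30 (SE 0.32). The 20 nt fragment of Gly-CCC was lower in db/db by mean, 1761 CPM ± 928 against 1009 CPM ± 494, and its log2 fold change of -0.80 (SE 0.41) had an adjusted p of 0.262 in edgeR. The most abundant fragments of Ser-GCT, Thr-CGT, Leu-AAG, Arg-TCT and Ala-CGC lay between -0.05 and 0.24 on the log2 scale.

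All calls in the next paragraphs are those of the fit with TMM factors, and with the implied totals the 4 fragments of Gly-GCC and 2 of Leu-AAG were the ones called. The 12 called fragments came from 6 ends under 6 tRNA names and held 0.981% of the counts, and the most abundant of them ranked 58 of 237. Of the 12, 5 had all 8 libraries at the level the filter asks for, 13.4 CPM before TMM scaling. The other 7 had the 4 db/db libraries but fewer than 4 wild type libraries at that level, and for 2 of these, the 23 nt fragment of Leu-AAG and the fragment of Met-CAT, no wild type library was. These 7 passed through the db/db libraries, so the number of calls is a description and nothing is read from its being in 1 direction. By name, 4 of the 12 were the fragments of Gly-GCC, 4 those of 1 of the 2 ends of Leu-AAG, and the other 4 were 1 fragment each of Gly-CCC, Ala-AGC, Arg-TCT and Met-CAT. The ends are shown because 5 of the 6 differ at 1 base from a more abundant end. Capitals mark the base at which each differs from a more abundant end, named in the line after it.
Gly-GCC end: gattcccggccCatgcacca
Gly-CCC end, 1 base away: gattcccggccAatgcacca
Leu-AAG called end: gaatcccaccActgccacca
Leu-AAG abundant end, 1 base away: gaatcccaccGctgccacca
Met-CAT called end: gaacctcagagAgggcacca
Met-CAT abundant end, 1 base away: gaacctcagagGgggcacca
Arg-TCT called end: gaAtcccaccagagtcgcca
Arg-TCT end, 1 base away: gaGtcccaccagagtcgcca
Ala-AGC called end: aatccccggcaCctccacca
Ala-CGC end, 1 base away: aatccccggcaTctccacca
With positions counted from 1 at the 3′ end and the more abundant end first, the differences are A9C, G10A, G9A, G18A and T9C. A more abundant end 1 base away existed for 23 of the 67 ends and for 5 of the 6 with a called fragment.

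Gly-GCC, a glycine tRNA for which RefSeq lists 14 genes, had 1 end listed under its name. Its longer 3′ tRFs as a sum, and its 21 nt fragment, rose in db/db β-cells. The 22 nt fragment had 16.01, 6.77, 15.1 and 17.8 CPM across the wild type libraries and 144, 66.8, 62.8 and 88.8 CPM across the db/db libraries. Every db/db library was above every wild type library, with a log2 fold change of 2.68 (SE 0.47), but 2 of the wild type libraries were below the level the filter asks for. The 21 nt fragment had 33.8, 20.3, 16.8 and 29.3 CPM in wild type and 183, 90.2, 163 and 117 CPM in db/db. All 8 libraries were above that level, and edgeR gave a log2 fold change of 2.46 (SE 0.41) with an adjusted p of 0.000124. The 20 and 23 nt fragments had 3 and 1 wild type libraries at that level and so passed through the db/db libraries, and their fitted values, 2.13 and 2.15, and that of the 22 nt fragment are given as a description. Summed over the 4 lengths, Gly-GCC rose from 70.2 CPM ± 10.05 to 367 CPM ± 94.3 (SD, n = 4), a log2 fold change of 2.38 (SE 0.32, adjusted p = 5.70e-07, edgeR). With the authors' effective sizes this sum was called at 1.91 (adjusted p = 0.0899, edgeR), but of the 4 single fragments the 22 nt one alone was.

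By tRNA name this was 1 called family of 41, where each family is the sum of the longer 3′ tRFs of a name. Over all 238 families of name, end and length class, 2.94% were called higher and 13.0% lower, and 0 of the 41 were called lower. DESeq2 called the same number, and 2 of the 41 had an unadjusted p under 0.05 in edgeR. The other 40 families had log2 fold changes within 1 of 0, and the median over the 41 was 0.00, against -0.11 over all 238. The initiator methionine tRNA iMet-CAT had 395, 405, 309 and 475 CPM across the wild type libraries and 610, 495, 909 and 578 CPM across the db/db libraries. Its genotypes did not overlap, but the log2 fold change of 0.71 (SE 0.30, adjusted p = 0.129, edgeR) was not called. The gain of Gly-GCC was not limited to 20 to 23 nt. Its log2 fold change was 2.27 for CCA-ended fragments of 16 to 19 nt and 1.97 for those of 24 to 30 nt, and its fragments with other ends were also called higher in all 3 length classes, by 1.14, 1.08 and 1.45, but there the genotypes overlapped in all 3 classes, since db/db library 3 lay within the wild type range.

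The end listed under Gly-GCC differs at A9C from an end listed under Gly-CCC, another glycine tRNA, for which RefSeq lists 6 genes. This Gly-CCC end had 11099 counts against 2107 for Gly-GCC. Each sequence has a single name in the table, and whether tRNAs of another name, Gly-GCC included, share the Gly-CCC end was not checked. These ends therefore need not come from tRNAs of different names. Summed over the 4 lengths, Gly-GCC counts were 7.34, 8.42, 7.84 and 7.08% of the counts of this Gly-CCC end across the wild type libraries and 24.01, 26.1, 22.6 and 23.2% across the db/db libraries. This ratio within a library needs no scaling between libraries, and it was chosen after the values had been seen, so it is given without a test. The genotypes did not overlap, and the libraries of each genotype lay close together. The Gly-CCC end itself had 1 called fragment, at 22 nt, with 176, 129, 166 and 239 CPM in wild type and 527, 283, 348 and 337 CPM in db/db (log2 fold change 1.07, SE 0.34, adjusted p = 0.0389, edgeR). Without wild type library 2 or db/db library 1 it was 0.92 or 0.87 and not called. The more abundant end of Gly-CCC had log2 fold changes of -0.80, -0.67, -0.55 and -0.79 at 20 to 23 nt, none of them called with all 8 libraries.

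Leu-AAG, a leucine tRNA with 5 genes in RefSeq, had 2 ends that differ at G10A, of which only the one with fewer counts, 1299 against 16966, had called fragments. The 23 nt fragment of this end had 7.12, 6.77, 3.36 and 12.4 CPM across the wild type libraries and 32.8, 39.7, 35.8 and 35.5 CPM across the db/db libraries. In raw counts this was 4, 5, 2 and 16 molecules in wild type and 34, 22, 86 and 40 in db/db, so the fragment passed the filter through the db/db libraries and could be tested only if it was higher there. The 21 nt fragment was the one of this end with all 8 libraries above the filter's level, at 23.1, 13.5, 26.9 and 34.8 CPM in wild type and 58.9, 63.2, 136 and 62.2 CPM in db/db. The genotypes did not overlap, and edgeR gave a log2 fold change of 1.70 (SE 0.45) with an adjusted p of 0.00936. The fitted values of the 20, 22 and 23 nt fragments, 1.68, 2.17 and 2.19, are given as a description. The 20 nt fragment, at 1.51 or 1.49, was not called without wild type library 1 or 2. At the abundant end the same lengths gave 0.09, 0.09, 0.41 and 0.03 from 20 to 23 nt, and the CPM of the genotypes overlapped in all 4. The 21 nt fragment of the abundant end, for one, had 1084, 456, 744 and 1091 CPM in wild type and 618, 794, 1467 and 699 CPM in db/db. As a share of the abundant end, the called end had 2.39, 3.28, 3.12 and 3.41% in wild type and 12.5, 11.2, 9.33 and 10.4% in db/db, with no overlap and again without a test.

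The remaining called fragments had few counts. Met-CAT, the elongator methionine tRNA, had a 21 nt fragment with 7.12, 5.41, 3.36 and 3.86 CPM in wild type and 17.4, 14.4, 26.6 and 15.99 CPM in db/db. In raw counts this was 4, 4, 2 and 5 molecules in wild type and 18, 8, 64 and 18 in db/db, so that its place in the table came mostly through the db/db libraries. No wild type library reached the filter's level, so the fragment could be tested only if it was higher in db/db, and its call is given without a p. The 21 nt fragment of the abundant Met-CAT end had a log2 fold change of -0.11. Without db/db library 1, 3 or 4 the called fragment did not pass the filter on low counts and was not tested. The 22 nt fragment of Ala-AGC rose by 1.42 on the log2 scale (SE 0.41, adjusted p = 0.0212, edgeR), from 41.2 CPM ± 17.9 to 112 CPM ± 25.9. Its 21 and 23 nt neighbours had 0.93 and 0.92 and were not called, the former because the change stayed under 2-fold.

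Arg-TCT, an arginine tRNA, had 4 ends, and the end of its called 22 nt fragment held 5.74% of the counts of that name. This fragment had 24.9, 13.5, 15.1 and 23.9 CPM in wild type and 43.5, 41.5, 45.3 and 55.1 CPM in db/db, a log2 fold change of 1.25 (SE 0.45, adjusted p = 0.0787, edgeR). The call was lost without wild type library 2 or 3 and without db/db library 1 or 4, which left log2 fold changes of 1.09 to 1.41 over all libraries left out. Relative to the end that differs at G18A, the called end of Arg-TCT had 38.0, 36.6, 23.2 and 32.6% in wild type libraries and 73.8, 57.0, 63.3 and 66.0% in db/db libraries, and the genotypes did not overlap. For Ala-AGC against the Ala-CGC end, which differs at T9C, the shares were 28.8, 26.5, 30.7 and 32.8% against 44.2, 47.1, 38.1 and 48.4%. For Met-CAT they were 6.35, 3.12, 2.90 and 3.21% against 13.8, 24.2, 17.9 and 17.1%. In all 5 pairs the shares of the end with fewer counts did not overlap between the genotypes. The pairs were picked because the ends had a called fragment, so these shares describe the calls on another scale and are no separate evidence.

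Some sequences in the table were the same as a longer 3′ tRF but lacked 1, 2 or 3 bases at the 3′ end, and so ended in CC, in C or before the tail. There were 48 of these shortened partners, 17 that lacked 1 base, 15 that lacked 2 and 16 that lacked 3, under 11 tRNA names. A sequence that lacked 3 bases but still ended in CCA was not taken as a partner, which leaves out tRNAs with CCA before the tail. The most abundant pair is shown, with the bases of the tail that are present in capitals.
Pro-AGG 22 nt fragment: tcaaatcccggacgagcccCCA
Pro-AGG partner, 1 base short: tcaaatcccggacgagcccCC
Of the counts of partners and of all 237 fragments together, partners held 6.68, 9.04, 6.57 and 3.82% across the wild type libraries and 0.629, 1.04, 1.05 and 1.10% across the db/db libraries (6.53% ± 2.13 against 0.956% ± 0.219, SD, n = 4). The lowest wild type library was above the highest db/db library. The same was seen for each number of missing bases, with 3.10% ± 0.907 against 0.254% ± 0.0844 for 1 base, 2.50% ± 0.977 against 0.460% ± 0.113 for 2 bases and 0.931% ± 0.285 against 0.242% ± 0.0722 for 3 bases. It was also seen at each start position, from 7.06% ± 2.08 against 1.09% ± 0.144 for the start of the 20 nt fragments to 4.70% ± 1.74 against 0.751% ± 0.225 for that of the 23 nt fragments. Only 35 of the 237 fragments had a partner. Pro-AGG had partners at each number of missing bases and at each start position, so these cuts hold much of the same counts and are not separate evidence.

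The table lists only sequences that reached 5 counts in 4 or more libraries, and all 48 partners reached 5 counts in all 4 wild type libraries, while 21 did so in all 4 db/db libraries. A partner could therefore be listed and tested through the wild type libraries alone, and a partner seen in few libraries was not in the table. Of the 38 partners tested, all but the one of Ile-TAT had 4 wild type libraries at the level the filter asks for, and 16 had no db/db library at that level. A partner of this kind could be tested only if it was lower in db/db, so the 32 of the 38 that were called lower, where 9.44% of all tested sequences were, are given as a description and nothing is read from their number. Fragments that do not end in CCA were also called lower outside the partners. Among the families of 24 to 30 nt with other ends, a length at which there was no partner, 12 of 39 were called lower and 2 higher, where 13.0% and 2.94% of all families were, and these too could pass the filter through 1 genotype. The per-library shares above rest on the same listed partners. The 22 nt fragment of Pro-AGG without its last base had 909, 693, 915 and 281 CPM across the wild type libraries and 15.5, 86.6, 81.5 and 41.7 CPM across the db/db libraries. Its log2 fold change was -3.64 (SE 0.49), while the complete fragment had -0.19. The partner of the 21 nt fragment of Gln-CTG had 726, 445, 331 and 209 CPM in wild type and 23.2, 19.9, 84.8 and 40.9 CPM in db/db, a log2 fold change of -3.29 (SE 0.48), against 0.46 for the complete fragment. Both of these partners had all 8 libraries at the filter's level. That of the 21 nt fragment of Pro-AGG had 3 db/db libraries at this level and a value of -3.86, and that of the 21 nt fragment of Ala-CGC had none. The Ala-CGC partner had 21, 18, 10 and 20 molecules in wild type and 9, 3, 14 and 6 in db/db, and its fold change is not given because it could be tested only if it was lower in db/db. The tested partners that lacked 1 base came from these 3 tRNAs and from Cys-GCA and Phe-GAA.

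Of the 6 tested partners that were not called, 5 were fragments of Gly-ACC that lacked 2 or 3 bases and 1 was a fragment of Ile-TAT that lacked 2. For Gly-ACC the log2 fold changes of the 5 lay between -1.07 and -0.39. Its other 3 partners, which lacked 2 bases, were called lower, with -1.70, -1.37 and -2.09. The Ile-TAT partner, at 0.42 (SE 0.63), was the only tested partner with a value above 0.

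Bases 2 to 8 of the longer 3′ tRFs, the stretch that would be the seed of a microRNA, took 95 different forms. Of these, 32 were found under more than 1 amino acid, and the fragments that carry them held 65.8% of the counts. The form with most counts, TCAAATC, came from 8 fragments of 23 nt under 6 tRNA names and held 8.60% of the counts. The next were CAAATCC with 5.47%, GAATCCC with 4.65%, AAATCCC with 4.30% and TCGAAAC with 3.99%. Shares of seeds are of counts pooled over the 8 libraries, of which db/db library 3 gave 282096 of 714578, and the order of the forms differed between libraries. Each of the 5 forms with most counts was seen at 1 length only, since a shift of the start by 1 base shifts the seed as well. In RefSeq, whose table for GRCm38.p6 holds 1738 mature mouse microRNAs, 6 of the 95 forms were seeds of a microRNA, and the fragments with these forms held 17.1% of the counts. The matches were GAATCCC with mmu-miR-3968, AAGTCAC with mmu-miR-224-5p, CGAATCC with mmu-miR-5100, CGAAACC with mmu-miR-6412, CAAGTCA with mmu-miR-125b-2-3p and CGATCCC with mmu-miR-6364. A shared seed is a match of letters and says nothing of whether a fragment binds a target.

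Aligned at the first base, with U read as T, the closest fragment differed from mmu-miR-3968 and from mmu-miR-5100 at 1 of 21 bases and from mmu-miR-6412 at 2 of 22, and from the other 3 microRNAs at 7 to 10 bases. The 3 close pairs are shown, with the seed in capitals.
Thr-AGT 22 nt: tCGAATCCcagcggtgcctcca
mmu-miR-5100: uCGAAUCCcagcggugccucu
Leu-CAG 21 nt: cGAATCCCactcctgacacca
mmu-miR-3968: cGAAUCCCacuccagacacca
iMet-CAT 22 nt: tCGAAACCatcctctgctacca
mmu-miR-6412: uCGAAACCauccucagcuacua
The first 20 bases of the Thr-AGT fragment were those of mmu-miR-5100, so its reads cannot be told from those of the microRNA except at the 3′ end. The other 2 fragments were like their microRNA over the first 13 and 14 bases and differed from it within the sequence. The Thr-AGT fragment had 3109 counts over the 8 libraries and a log2 fold change of -0.67 (SE 0.33, adjusted p = 0.256, edgeR). The Leu-CAG fragment had 1668 counts and a value of 0.28 (SE 0.34), and the iMet-CAT fragment had 1452 counts and a value of 0.84 (SE 0.35), and neither was called. Fragments of Ile-TAT of 21, 22 and 23 nt shared at least 16 bases with the hairpin of Mir1983.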

How the data were processed

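Total RNA of sorted β-cells was made into libraries with the QIAseq miRNA kit, in which each molecule carries a unique identifier, and sequenced single-end. The authors collapsed identical reads longer than 16 nt by identifier, aligned them to GRCm38.p6 and matched them without a mismatch to mature tRNAs. Their deposited table holds, for each sequence and library, a count of unique molecules and a score (RPM rounded to whole numbers). It also holds log2 values that the authors normalised in a way for which no source used here gives the method. The authors' column on the direction of change was not used. Counts per library summed to between 582165 and 2946290. The rounded RPM gave the total of all counts in each library and the log2 values the authors' effective sizes, both used as alternative scalings.

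The test was edgeR's quasi-likelihood test (version 4.0.16, R 4.3.3) on counts, with TMM factors on tRF totals, filterByExpr (min.count 10, min.total.count 15) and genotype as the only term, over all sequences, over sums by tRNA name, end and length class (16 to 19, 20 to 23 and 24 to 30 nt), and over sums by end and exact length. Benjamini-Hochberg adjustment ran over all rows of each fit. A call needed an adjusted p below 0.1 and a change above 2-fold. The SE of a log2 fold change is its size over the root of its F statistic. Libraries were assigned to genotypes by the labels, which give 4 preparations per genotype and no pairing or batch. The procedure was tested on simulated counts.

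The members, lists and tests were chosen with earlier results of these data known. Fragments named were the most abundant at each length and in each of the 10 tRNA names with most counts, the 5 largest called increases with 1 per tRNA name, the partners 1 base short of the abundant ones, and called families. Comparisons of ends 1 base apart, and the other fragments of the called ends, were chosen after their values were seen. Alternatives were RLE factors, no factor, both other scalings, no filter, 10 counts in 4 libraries, DESeq2 1.42.0, an adjusted p below 0.05, no limit on the fold change, leaving out each library, leaving out the most abundant sequence of each family and leaving out Asp-GTC from the length sums. Sequences of microRNAs and positions of tRNA genes were taken from RefSeq for GRCm38.p6.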

Additional observations from a re-analysis of the deposited data

Results flagged for a closer look

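In each group of 4 libraries, a value far from the other 3 was looked for in 102 groups of values, and 5 stood out by Dixon's criterion at 95%, which chance alone passes in about 1 of 20 groups. The 21 nt fragment of Trp-CCA had 6071 CPM in db/db library 3, where the other db/db libraries had 2236 to 2478 CPM. The sum of all CCA-ended fragments of 21 nt was 45388 CPM in the same library, against 21738 to 24548 CPM in the others. In db/db library 1 the partner of the 21 nt fragment of Ala-CGC that lacks 1 base had 8.69 CPM, against 5.33 to 5.82 CPM. Partners that lack 1 base held 0.128% of the counts of partners and complete fragments in db/db library 1, against 0.280 to 0.310% in the others, and partners that lack 1 to 3 bases held 0.629%, against 1.04 to 1.10%. What sets these libraries apart was not tested.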

How the results depend on the processing

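The count of called longer 3′ tRFs, 12, was 11 to 13 with RLE factors, no factor, no filter, 10 counts in 4 libraries, DESeq2, an adjusted p below 0.05 and no limit on the fold change, but 6 with the implied totals and 1 with the authors' effective sizes, and it ranged from 9 to 16 when each library was left out. The count of called families stayed at 1 in every alternative run, and that of called partners ranged from 29 to 41 over all alternatives, and from 31 to 39 when each library was left out. The log2 fold changes of the length sums stayed uncalled and changed sign. They were -0.19 and -0.18 for 21 nt and -0.11 and -0.12 for 22 nt with the implied totals and the authors' effective sizes, and 0.073 for 23 nt without a factor. When each library was left out they ranged from -0.20 to 0.067 for 20 nt, from -0.22 to 0.38 for 21 nt, from -0.057 to 0.35 for 22 nt and from -0.16 to 0.18 for 23 nt. Uncalled single fragments also changed sign. Without a factor the 20 nt fragment of Gly-ACC had 0.0075, and the 21 nt fragments of Ser-GCT and Thr-CGT had 0.11 and 0.16. With the implied totals the 21 nt fragments of Leu-AAG (abundant end) and Ala-CGC had -0.070 and -0.0077, and the latter had -0.033 with the authors' effective sizes. When each library was left out, the fragments of Gly-ACC ranged from -0.27 to 0.094 (20 nt) and from -0.29 to 0.055 (23 nt), those of Pro-AGG from -0.57 to 0.081 (21 nt) and from -0.40 to 0.14 (22 nt), and those of Leu-AAG, Ser-GCT and Thr-CGT from -0.22 to 0.31, from -0.20 to 0.21 and from -0.25 to 0.49. The cause was not tested. No paired analysis was possible because no replicate number in the labels is common to both genotypes. Below about 10 counts per library, as for the called fragments of Met-CAT and of Leu-AAG at 23 nt in most wild type libraries, a fold change rests on few molecules.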
